A study of Saccharomyces cerevisiae with 12 samples.

Results

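The phosphate starvation genes examined here are 10 yeast genes, taken by name from the 7130 genes listed in the deposited expression tables. They are the phosphate carriers *PHO84* and *PHO89*, the acid phosphatases *PHO5*, *PHO11* and *PHO12*, the vacuolar alkaline phosphatase *PHO8*, the regulators *PHO4*, *PHO81* and *SPL2*, and the polyphosphate synthesis gene *VTC3*. All 10 were listed in both tables with a finished estimate in every condition. RNA was sequenced from 12 cultures of haploid *Saccharomyces cerevisiae*, with 3 independent colonies for each of 4 conditions. The strain McFY2, called tetO-*GLN4*, carries the cassette PGLN4::KanMX4-tTA-tetO7 in place of the native promoter of *GLN4*, the gene for glutaminyl tRNA synthetase, so that doxycycline shuts its transcription off. It was grown with 1 µg/ml doxycycline or with 0 µg/ml. The wild type, BY4742, was grown with the same doses and shows what the drug does where *GLN4* keeps its own promoter. Both strains are MAT{alpha} and share the markers his3D1, leu2D0, lys2D0 and ura3D0, and both grew overnight in rich medium to mid-log phase. Shutting *GLN4* off slows growth, and a change that comes with growth rate cannot be told apart from loss of Gln4p itself.

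Yeast senses phosphate through the PHO pathway. When phosphate is plentiful, as in rich medium, the cyclin-dependent kinase Pho85 with its cyclin Pho80 phosphorylates the transcription factor Pho4 and keeps it out of the nucleus. When phosphate runs short, the inhibitor Pho81 holds the kinase back, and Pho4, with its partner Pho2, switches on high-affinity uptake, secreted phosphatases that free phosphate outside the cell, and enzymes that store or mobilise polyphosphate.

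Pho4 binds the sequence CACGTG, and more weakly CACGTT, so the stretches before the start codons of the 10 genes were searched for these letters on both strands. Within 600 bases of the start codon, CACGTG was found for 9 of the 10 genes and CACGTT for 8, and *PHO4* itself was the gene with neither. Of 5985 protein-coding genes with such a window, 7.23% hold CACGTG and 18.8% hold CACGTT. A match gives letters only and shows neither binding nor an effect, and since Pho4 sites helped define this set of genes the share is a description of it. The sequences below are from 4 genes, the 2 that rose and the 2 that fell when *GLN4* was shut off. Each of the 4 holds CACGTG, as do 9 of the 10 genes, so sharing it says nothing about their directions. The stretches are 300 bases each from the R64 reference, written from 5′ to 3′ along the gene. CACGTG is in capitals, and likewise CACGTT or, where it lies on the other strand, its reverse complement.
*PHO89*: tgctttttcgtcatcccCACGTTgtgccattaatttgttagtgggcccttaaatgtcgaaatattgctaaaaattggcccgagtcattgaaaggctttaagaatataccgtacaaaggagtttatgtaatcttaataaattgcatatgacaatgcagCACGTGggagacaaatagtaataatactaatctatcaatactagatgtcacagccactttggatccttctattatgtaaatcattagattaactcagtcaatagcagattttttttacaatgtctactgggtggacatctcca
*PHO8*: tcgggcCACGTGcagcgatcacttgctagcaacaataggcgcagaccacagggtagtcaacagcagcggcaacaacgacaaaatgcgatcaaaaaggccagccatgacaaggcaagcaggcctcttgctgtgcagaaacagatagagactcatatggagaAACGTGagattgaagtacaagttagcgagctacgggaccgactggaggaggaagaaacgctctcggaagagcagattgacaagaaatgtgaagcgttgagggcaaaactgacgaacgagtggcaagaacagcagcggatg
*PHO84*: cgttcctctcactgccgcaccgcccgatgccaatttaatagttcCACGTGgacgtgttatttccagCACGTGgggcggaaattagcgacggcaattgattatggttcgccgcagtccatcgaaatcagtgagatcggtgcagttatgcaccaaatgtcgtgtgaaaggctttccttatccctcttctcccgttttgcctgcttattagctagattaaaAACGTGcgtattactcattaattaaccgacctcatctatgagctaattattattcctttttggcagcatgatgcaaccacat
*PHO5*: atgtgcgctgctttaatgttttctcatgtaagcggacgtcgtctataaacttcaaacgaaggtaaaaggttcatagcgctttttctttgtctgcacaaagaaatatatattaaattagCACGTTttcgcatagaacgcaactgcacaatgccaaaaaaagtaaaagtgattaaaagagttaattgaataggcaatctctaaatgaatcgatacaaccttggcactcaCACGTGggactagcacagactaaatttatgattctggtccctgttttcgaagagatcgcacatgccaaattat
The *PHO89* stretch (R64, chrII:798703-799002, reverse strand) and the *PHO5* stretch (chrII:431132-431431, reverse strand) run from base 480 to base 181 before the start codon and overlap no listed gene. The *PHO84* stretch (chrXIII:25981-26280, reverse strand) covers the same distance and shares 243 bases with YML122C. The *PHO8* stretch (chrIV:1420491-1420790, reverse strand) was taken farther out, from base 540 to base 241, to hold its CACGTG, and all 300 of its bases lie in the neighbouring gene *CWC21*.

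The values are FPKM, the fragments counted for a gene per kilobase of its length and scaled to make libraries comparable. Each condition has a single value for a gene, which combines its 3 cultures, with a 95% confidence interval. A gene was called changed where the intervals of the 2 conditions of a strain did not touch. A second call came from a z test on the log2 ratio, whose SD was derived from those intervals, at a Benjamini-Hochberg adjusted p under 0.05 over all genes. It is a normal approximation on combined cultures, so its p-values are not given. No value of a single culture was analysed, so the spread between cultures and the depth of the libraries remain unknown. In tetO-*GLN4* the intervals lay apart for 31.1% of 6553 genes, 15.0% higher and 16.1% lower with doxycycline, and in the wild type for 0.152% of 6560 genes. The z test called 39.0% of genes in tetO-*GLN4* and 0.107% in the wild type, and 20.6% and 1.13% changed by at least 2-fold. Both calls are cautious. In the wild type 83.1% of genes had a log2 ratio below that of *PHO84* (0.07) and 18.4% below that of *VTC3* (-0.08). The median SD of a wild-type ratio was 0.22, wide beside these values, so a gene that was not called is not shown to be unchanged. The shut-off gene *GLN4* had 30.5 FPKM in treated tetO-*GLN4* and is listed at 0 without doxycycline because its estimate failed, so no ratio can be given, while the wild type had 199.2 FPKM with doxycycline and 199.3 without. Some marker genes of the labelled cell type went against the label in treated tetO-*GLN4*. The 4 α-specific genes with a ratio fell, with log2 ratios between -6.30 and -5.45, and *STE3* had 11.5 FPKM with doxycycline against 611 without. Of the 6 haploid-specific genes 4 fell, and of the 6 **a**-specific genes 2 rose. *MATALPHA1* is listed at 0 in all 4 conditions. These include the wild type, where *STE3* had 562 FPKM with doxycycline and 563 without, so the 0 of *MATALPHA1* does not bear on the label. Whether this loss of α-specific expression had a part in the results below was not tested.

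With *GLN4* shut off, 4 of the 10 genes changed, and they did not move together. *PHO89* and *PHO8* rose, while *PHO84* and *PHO5* fell. The intervals of the other 6 genes overlapped. This count of 4 of 10 lies near the 31.1% of all genes and is not read as a property of the set. The median log2 ratio of the 10 genes was -0.19, against 0.0071 over all 6553 genes, with a range from -0.76 to 2.20. By comparison, 0 of the 10 changed in the wild type (0.152% of all genes by the intervals, 0.107% by the z test), and their log2 ratios lay between -0.28 and 0.41.

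**Figure D1:**
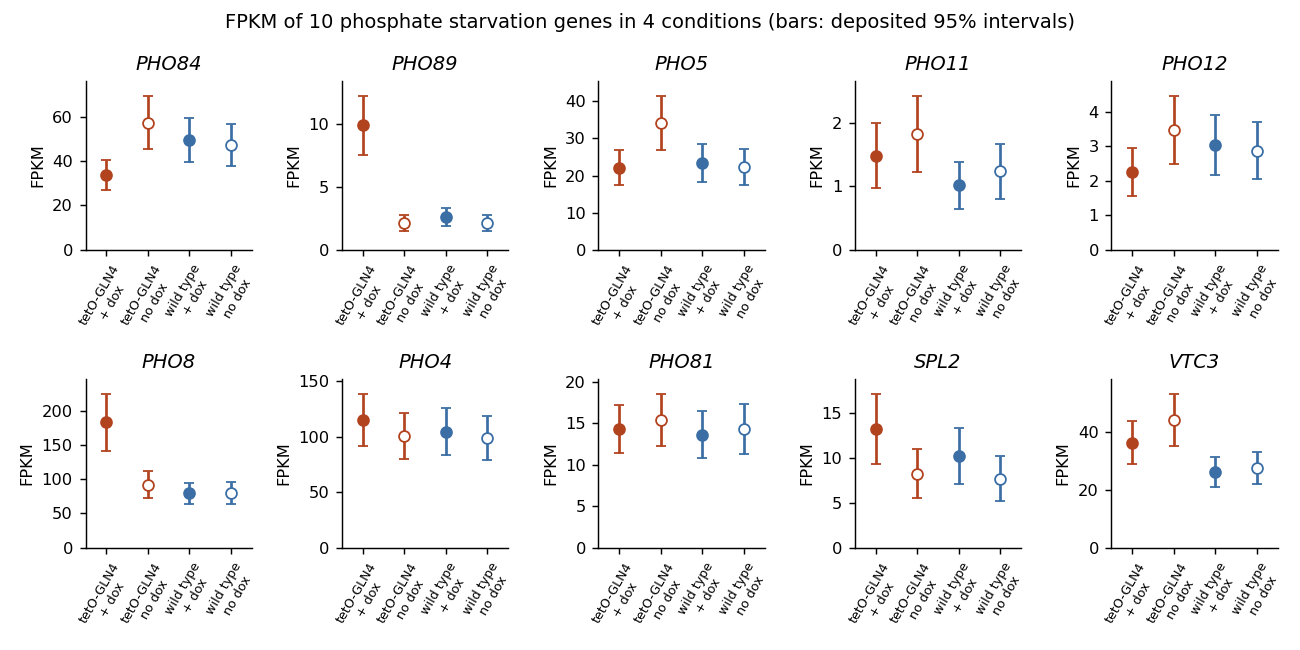
FPKM of each of the 10 genes on its own linear axis, in tetO-*GLN4* with and without doxycycline (red, filled and open) and in the wild type with and without it (blue, filled and open). Bars are the deposited 95% intervals, and *PHO89* and *PHO8* in treated tetO-*GLN4* stand above their 3 other conditions.

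The phosphate carriers were examined first. *PHO84* encodes the main high-affinity carrier, which takes up phosphate with protons. It had 33.9 FPKM (95% interval 27.0 to 40.7) in treated tetO-*GLN4* and 57.4 FPKM (45.6 to 69.2) in untreated tetO-*GLN4*. Wild-type cultures had 49.7 FPKM (39.7 to 59.7) with doxycycline and 47.3 FPKM (37.7 to 56.8) without. Treated tetO-*GLN4* was thus the lowest of the 4 conditions. Its interval lay apart from that of the untreated strain but overlapped both wild-type intervals. The log2 ratio for tetO-*GLN4* was -0.76 (SD 0.21), which also passed the z test and was the 987th lowest of 6553 genes. That of the wild type was 0.07 (SD 0.21).

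*PHO89* encodes the other high-affinity carrier, which moves phosphate with sodium and is also known to respond to alkaline pH. It had 9.85 FPKM (7.55 to 12.2) in treated tetO-*GLN4* and 2.15 FPKM (1.51 to 2.79) in the untreated strain, against 2.59 FPKM (1.86 to 3.31) and 2.12 FPKM (1.51 to 2.73) in the wild type with and without doxycycline. The value in treated tetO-*GLN4* stood above the other 3, which overlapped each other. The rise was 4.59-fold, a log2 ratio of 2.20 (SD 0.27), which passed the z test and ranked 125th from the highest of 6553 genes. It began from a low level and ended at one that was still low. Of the genes with a value above 0, 3.98% lay below *PHO89* in untreated tetO-*GLN4* and 9.94% in the treated strain. The wild-type log2 ratio was 0.29 (SD 0.29). Since the carriers moved in opposite directions, *PHO89* made up 22.5% of their summed FPKM in treated tetO-*GLN4* and 3.60% in the untreated strain, against 4.95% and 4.29% in the wild type with and without doxycycline. No window of 50 bases of *PHO84* is found unchanged in *PHO89*. The read length is not given, and whether any reads were shared was not tested.

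Among the secreted acid phosphatases, *PHO5* encodes the major repressible enzyme. It had 22.1 FPKM (17.4 to 26.9) in treated tetO-*GLN4* and 34.1 FPKM (26.9 to 41.3) in untreated tetO-*GLN4*, and 23.4 FPKM (18.3 to 28.5) and 22.2 FPKM (17.3 to 27.0) in the wild type with and without doxycycline. The untreated tetO-*GLN4* cultures held the highest value, though their interval overlapped both wild-type intervals, and the other 3 were alike within their intervals. The log2 ratio was -0.62 (SD 0.22), which also passed the z test. The gap between the intervals was 0.0125 FPKM, so *PHO5* stood just inside the call. Of the members outside it, *SPL2* and *PHO12* came nearest relative to their level, with overlapping intervals and so negative gaps of -15.2% and -16.4% of the mean FPKM of the conditions.

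The reads of *PHO5* may not be fully its own. The neighbouring *PHO3*, a constitutive acid phosphatase that thiamine represses, is 86.5% identical to it over 1404 coding bases, and 118 of 1355 windows of 50 bases in *PHO5* (8.71%) are found unchanged in *PHO3*. *PHO3* had 20.4 FPKM in treated tetO-*GLN4* and 151 FPKM in the untreated strain, and 205 and 208 FPKM in the wild type with and without doxycycline. It fell in tetO-*GLN4* with a log2 ratio of -2.89 (SD 0.22), the 45th lowest of 6553 genes. The part of *PHO3* reads in the fall of *PHO5* was not tested.

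*PHO11* and *PHO12* encode acid phosphatases of minor activity and lie near the ends of chromosomes I and VIII. Their coding sequences differ at 4 of 1404 bases, and 87.2% of the 50-base windows of *PHO11* occur in *PHO12*, so that the division of reads between them is uncertain. The 30 bases that hold 2 of these differences, coding bases 1242 to 1271, are given from R64 (chrI:226701-226730 and chrVIII:553340-553369, forward strand), with the differing bases in capitals. Counted from base 1 of the start codon, with *PHO11* first, they are C1245T and A1268G.
*PHO11*: ctcCtgtgaaataaatgacttctacgActa
*PHO12*: ctcTtgtgaaataaatgacttctacgGcta
*PHO11* had 1.48 FPKM in treated tetO-*GLN4* and 1.82 FPKM in untreated tetO-*GLN4*, against 1.01 and 1.23 FPKM in the wild type with and without doxycycline. *PHO12* had 2.25 FPKM with doxycycline and 3.46 FPKM without in tetO-*GLN4*, and 3.04 and 2.87 FPKM in the wild type. All these intervals overlapped within a strain. Since both genes have the same length, their FPKM can be added without deciding between them. A sum does not settle reads shared with *PHO5*, which had the higher level in every condition. Of the 1355 windows of 50 bases in *PHO5*, 49 (3.62%) are found unchanged in *PHO11* and 35 (2.58%) in *PHO12*. The part of *PHO5* reads in the values of this pair was not tested. The sum was 3.73 FPKM in treated tetO-*GLN4* and 5.28 FPKM in the untreated strain, a log2 ratio of -0.50, and 4.05 and 4.11 FPKM in the wild type with and without doxycycline, a log2 ratio of -0.02. No interval is given for a sum, because the errors of the genes are not independent.

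*PHO8* encodes the alkaline phosphatase of the vacuole. It had 184 FPKM (142 to 225) in treated tetO-*GLN4* and 92.5 FPKM (73.0 to 112) in the untreated strain, against 79.4 FPKM (63.7 to 95.1) and 80.2 FPKM (64.3 to 96.1) in the wild type with and without doxycycline. The treated tetO-*GLN4* value lay above the other 3, whose intervals overlapped. The rise was 1.99-fold, a log2 ratio of 0.99 (SD 0.22), which passed the z test and ranked 702nd from the highest. Its change also altered the order of the levels. In treated tetO-*GLN4* *PHO8* was the most abundant of the 10 mRNAs per length, apart from *PHO4* with 115 FPKM (91.9 to 138). In the other 3 conditions *PHO4* stood first, and its interval overlapped that of *PHO8*.

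**Figure D2:**
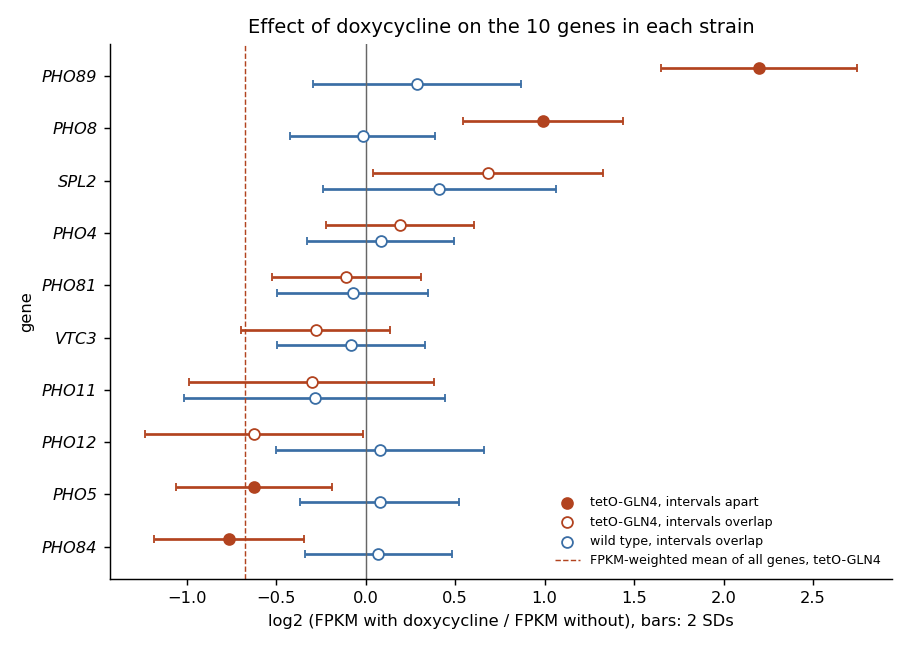
Log2 of the FPKM with doxycycline over that without, for the 10 genes in tetO-*GLN4* (red) and the wild type (blue), with bars of 2 SDs. Filled points mark genes whose 95% intervals lay apart, namely *PHO89*, *PHO8*, *PHO5* and *PHO84* in tetO-*GLN4*, and the dashed line is the FPKM-weighted mean of all genes in that strain (-0.67).

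None of the regulators passed the interval call or the z test, which does not show that they were unchanged. *PHO4*, the transcription factor of the pathway, had 115 FPKM in treated tetO-*GLN4* and 101 FPKM (80.2 to 121) in the untreated strain, and 104 and 98.4 FPKM in the wild type with and without doxycycline. Its log2 ratio was 0.19 (SD 0.21) in tetO-*GLN4*. *PHO81*, the inhibitor of the Pho80-Pho85 kinase and itself a Pho4 target, had 14.3 FPKM (11.4 to 17.2) in treated tetO-*GLN4* and 15.4 FPKM (12.3 to 18.5) in the untreated strain. It had 13.6 and 14.3 FPKM in the wild type with and without doxycycline, so that its values differed little between any of the conditions. Its log2 ratio was -0.11 (SD 0.21) in tetO-*GLN4* and -0.07 (SD 0.21) in the wild type. *SPL2*, which encodes a small protein that lowers low-affinity phosphate uptake, had 13.3 FPKM (9.36 to 17.2) in treated tetO-*GLN4* and 8.25 FPKM (5.51 to 11.0) without doxycycline. Wild-type levels were 10.2 FPKM (7.09 to 13.4) with doxycycline and 7.70 FPKM (5.16 to 10.2) without. Both strains had the higher value with the drug, with overlapping intervals. The log2 ratio was 0.68 (SD 0.32) in tetO-*GLN4*, which did not pass the z test, and 0.41 (SD 0.32) in the wild type.

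*VTC3* encodes a subunit of the vacuolar complex that makes polyphosphate. It had 36.3 FPKM (29.0 to 43.6) in treated tetO-*GLN4* and 44.1 FPKM (35.0 to 53.1) in the untreated strain, a log2 ratio of -0.28 (SD 0.21). Wild-type cultures had 26.1 FPKM (20.8 to 31.4) with doxycycline and 27.6 FPKM (22.0 to 33.2) without. As deposited, its level differed more between the strains than between the conditions of either. The strains were normalized separately, and the median gene was also higher in tetO-*GLN4*, by log2 0.15 without doxycycline and 0.17 with it.

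**Figure D3:**
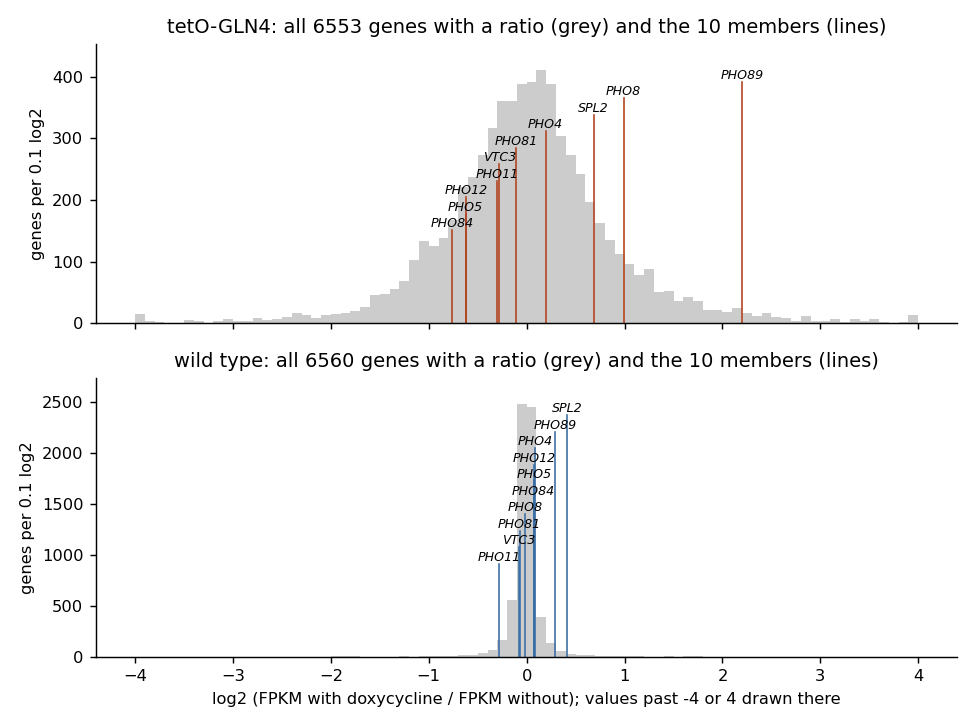
Number of genes by log2 of the FPKM with doxycycline over that without, in bins of 0.1, for all 6553 genes of tetO-*GLN4* (top) and all 6560 of the wild type (bottom), with a line for each of the 10 genes. In tetO-*GLN4* the members lie on both sides of the distribution, from -0.76 for *PHO84* to 2.20 for *PHO89*, and in the wild type within the narrow peak or at its edges.

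The order of the levels, which FPKM allows because it is scaled by length, was similar in 3 of the conditions. In untreated tetO-*GLN4* and in the wild type with and without doxycycline it ran from *PHO4* and *PHO8* through *PHO84*, *VTC3* and *PHO5* to *PHO81* and *SPL2*, with *PHO12*, *PHO89* and *PHO11* at the bottom. *VTC3* and *PHO5*, and *PHO12* and *PHO89*, did not differ beyond their intervals in any of these. In treated tetO-*GLN4* *PHO89* stood above *PHO12*, with intervals apart, and next below *SPL2*, from which it did not differ beyond the intervals. The levels of *PHO11* and *PHO12*, at or below 3.46 FPKM in every condition, placed them within the lowest 5.75% of genes with a value above 0.

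Because the tables of the strains were normalized separately, levels across strains are given side by side with no test. The median log2 ratio of tetO-*GLN4* to the wild type over all genes was 0.15 (SD across genes 0.48) without doxycycline and 0.17 (SD 0.94) with it. Without doxycycline, the log2 ratio to the wild type was 0.67 for *VTC3*, 0.62 for *PHO5* and 0.56 for *PHO11*, the highest of the 10, and 0.02 for *PHO89*, the lowest. With doxycycline it was 1.93 for *PHO89* and 1.21 for *PHO8* at the upper end, and -0.55 for *PHO84* and -0.43 for *PHO12* at the lower end. *PHO5* had -0.08 with doxycycline, so that its treated tetO-*GLN4* level was beside that of the wild type. The treated level of *PHO84* was below both wild-type levels, with overlapping intervals.

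The effect of doxycycline in tetO-*GLN4* was then set against its effect in the wild type. The difference of the log2 ratios was tested with a z test over 6538 genes at an adjusted p under 0.05, which 23.5% passed (11.0% as higher and 12.5% as lower in tetO-*GLN4*). The difference was 1.91 (SD 0.40) for *PHO89*, 1.01 (SD 0.30) for *PHO8* and -0.83 (SD 0.29) for *PHO84*. These 3 members passed, which is near the share of all genes. *PHO5*, with a difference of -0.70 (SD 0.31), did not, although its intervals lay apart in tetO-*GLN4*. For *PHO4*, *PHO81* and *VTC3* the difference plus or minus 2 SDs ran from -0.47 to 0.69, from -0.63 to 0.56 and from -0.78 to 0.39, so the values allow differences up to these sizes.

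The direction of the falls depends on the scale. The deposited scale holds the median of all genes near 0, but the FPKM of all genes summed to 1.70e+06 in treated tetO-*GLN4* and 2.62e+06 in the untreated strain, and the FPKM-weighted mean log2 ratio was -0.67. When every ratio was centred on that mean, a setting whose counts were added after seeing the data, the median of all genes was 0.68. On that scale 45.9% of genes were higher and 4.27% lower by their intervals. Of the 10 members 4 were then higher and 0 lower, namely *PHO89* (2.87), *PHO8* (1.66), *SPL2* (1.36) and *PHO4* (0.87), in place of 2 higher and 2 lower. *PHO84* was at -0.09 and *PHO5* at 0.049, both with overlapping intervals, so the fall of *PHO84* and *PHO5* holds relative to the median gene and not relative to the bulk of the mRNA. The difference between the strains for *PHO84* was -0.17 on that scale and no longer passed. *PHO89* and *PHO8* were higher in treated tetO-*GLN4* on both scales.

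The other genes of phosphate homeostasis were examined as a list of 30, grouped by role. In tetO-*GLN4* 2 rose and 6 fell by their intervals, beside 15.0% and 16.1% of all genes, and the other 22 overlapped. Their median log2 ratio was -0.14. Centred on the FPKM-weighted mean 11 of the 30 were higher and 1, *PHO3*, lower. None of the 30 (0) changed in the wild type.

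The 2 that rose handle glycerophosphodiesters, phosphate-containing breakdown products of membrane lipids. *GDE1*, a phosphodiesterase acting on glycerophosphocholine, had 32.4 FPKM (25.7 to 39.0) in treated tetO-*GLN4* and 13.2 FPKM (10.5 to 15.9) in the untreated strain, and 12.4 and 12.8 FPKM in the wild type with and without doxycycline. *GIT1*, a permease for glycerophosphoinositol, had 7.04 FPKM (5.26 to 8.82) and 3.27 FPKM (2.36 to 4.18) in treated and untreated tetO-*GLN4*, and 2.50 and 2.27 FPKM in the wild type with and without doxycycline. For both, treated tetO-*GLN4* was above the other 3 conditions, with log2 ratios of 1.30 (SD 0.21) and 1.11 (SD 0.27). The difference from the wild type passed the z test for *GDE1* (1.34, SD 0.30) and not for *GIT1* (0.97, SD 0.40).

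Of the 6 that fell, *PHO3* had the largest change. *PHM6*, a Pho4 target of unknown function with a CACGTG in its upstream window, had 9.18 FPKM (5.44 to 12.9) in treated tetO-*GLN4* and 28.3 FPKM (19.9 to 36.7) in the untreated strain, a log2 ratio of -1.63 (SD 0.36). *PPN2*, a vacuolar polyphosphatase listed under YNL217W, had a log2 ratio of -1.16 (SD 0.21). The log2 ratio was -0.86 (SD 0.24) for *PHO88*, which encodes a membrane protein of the endoplasmic reticulum, -0.76 (SD 0.22) for the phosphatase gene *PHO13*, and -0.76 (SD 0.22) for *PHO23*, which encodes a subunit of a histone deacetylase complex. Wild-type log2 ratios of these 5 genes lay between -0.05 and 0.10.

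The core of the signalling pathway did not pass the call. With *GLN4* shut off, the log2 ratio stood at 0.34 (SD 0.21) for the kinase gene *PHO85*, -0.11 (SD 0.21) for its cyclin gene *PHO80* and 0.11 (SD 0.21) for *PHO2*, the partner of *PHO4*. For the inositol pyrophosphate enzymes *KCS1*, *VIP1* and *DDP1*, which make or remove the signalling molecules that report phosphate to the pathway, it lay between -0.32 and 0.28. For the low-affinity carriers *PHO87*, *PHO90* and *PHO91* and the exporter *SYG1* it lay between -0.13 and 0.04. Of the remaining subunits of the polyphosphate complex, the catalytic subunit *VTC4* had 0.12 (SD 0.22) and the other 3 had values below 0, with -0.20 (SD 0.21) for *VTC5*, -0.36 (SD 0.22) for *VTC1* and -0.53 (SD 0.21) for *VTC2*, whose intervals overlapped but which passed the z test. *PHM8* likewise passed the z test alone, with -0.50 (SD 0.21), and had -0.42 (SD 0.21) in the wild type, where it passed neither call.

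**Figure D4:**
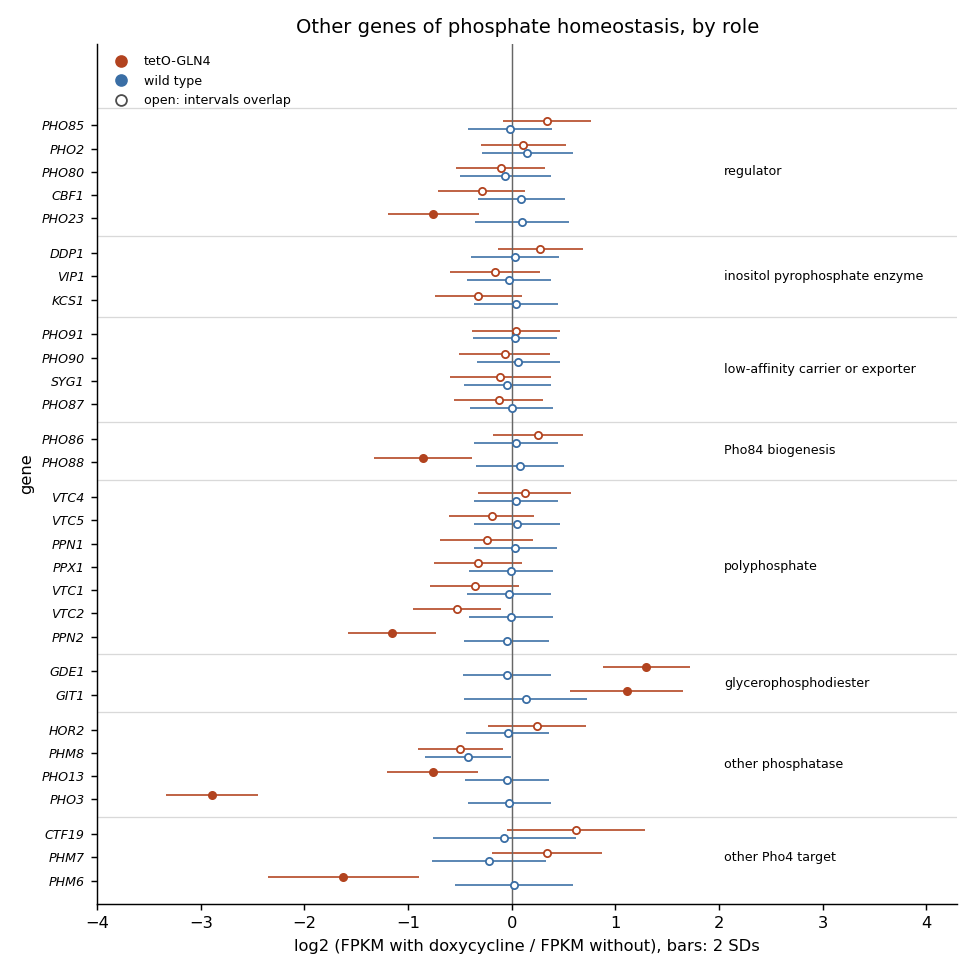
Log2 of the FPKM with doxycycline over that without, for 30 other genes of phosphate homeostasis, grouped by role, in tetO-*GLN4* (red) and the wild type (blue), with bars of 2 SDs and filled points where the 95% intervals lay apart. *GDE1* and *GIT1* lie to the right, *PHO3* and *PHM6* farthest to the left, and every wild-type point is open.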

How the data were processed

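RNA was made into libraries with a stranded kit and sequenced from 12 yeast cultures, 3 in each of 4 conditions. Reads were mapped by the authors, using TopHat 1.4.0, to the yeast genome (builds sacCer3 and R64 in the submitters' processing notes) and the deposited FPKM values and their 95% confidence bounds were computed by Cuffdiff, separately for each strain and over the 3 cultures of a condition. The versions of Cuffdiff and Cufflinks, the read length and whether counting used strand are not given in the sources used here, so antisense RNA cannot be told apart. The deposited comparison tables hold the authors' own fold changes and p-values and were not used. The 10 loci match R64, as do 89.4% of 5988 listed genes with an entry there (99.9% lie within the listed locus).

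Ratios were taken within a strain, on the log2 scale and with no pseudocount. Upper bounds were read as the FPKM plus 2 SDs, since every interval was symmetric or floored at 0. Genes with a failed estimate (7 in tetO-*GLN4*, 4 in the wild type) or an FPKM of 0 in either condition had no ratio. Ratios had a median SD of 0.22 on the log2 scale in either strain. The comparison of intervals and both z tests (two-sided, called at an adjusted p under 0.05) were tested on simulated data. The simulated noise was taken from the deposited intervals, so it cannot show whether those intervals match the spread between cultures. Bounds were taken in the deposited unit of the authors, FPKM. As alternatives, 1 or 0.1 was added to each FPKM, or genes under 1 FPKM were left out, and others were centring on the median or the FPKM-weighted mean, a 2-fold rule and an adjusted p under 0.01. The genes named are the members, the list of 30 related genes, marker genes, *GLN4* and for each member its closest listed neighbours. Members and lists were chosen with earlier results of these data known. Computations ran in Python 3.11.15 (pandas 2.3.3; scipy 1.17.1; numpy 2.4.6).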

Additional observations from a re-analysis of the deposited data

Results flagged for a closer look

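The response to doxycycline differed between the strains for 3 of the 10 genes by the z test of the difference of the log2 ratios. The log2 ratio in tetO-*GLN4* minus that in the wild type was 1.91 for *PHO89*, from 2.20 and 0.29. It was 1.01 for *PHO8*, from 0.99 and -0.02. It was -0.83 for *PHO84*, from -0.76 and 0.07, and this difference passed on the deposited scale but not after centring on the FPKM-weighted mean. Of all 6538 genes tested 11.0% passed as higher and 12.5% as lower in tetO-*GLN4*.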

How the results depend on the processing

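Of the 10 members 4 were called in tetO-*GLN4* by the intervals, by the z test and with an FPKM minimum of 1, each time with 2 higher and 2 lower. A 2-fold rule without regard to the intervals called 1, *PHO89*, since *PHO8* stood at 1.99-fold, and called 5 of the 30 related genes (2 higher and 3 lower) in place of 8. In the wild type every alternative called 0 of the 10 and 0 of the 30. Centred on the FPKM-weighted mean of its strain, the log2 ratio of *PHO5* in tetO-*GLN4* was 0.049 in place of -0.62 and that of *PHO84* was -0.09 in place of -0.76. The difference between strains passed for 3 members under both pseudocounts, the FPKM minimum and centring on the median, and for 2 at an adjusted p under 0.01, where *PHO84* was lost. Centred on the FPKM-weighted mean 3 passed, all higher in tetO-*GLN4*, with *PHO4* (0.77) in the place of *PHO84*. No paired analysis was possible because the deposited columns combine the cultures of a condition, and for the same reason no culture could be left out. The depth of the libraries is unknown. The lowest members had the widest intervals, with a SD of 17.3% of the FPKM for *PHO11* in treated tetO-*GLN4* against 10.1% for *PHO4*.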

Other observations

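Of the 22 neighbouring genes with a ratio in tetO-*GLN4*, 6 were called by their intervals, beside 31.1% of all genes. Of these, 4 lay beside a member that was not called, and 2 beside *PHO5*. *YHB1*, a flavohemoglobin gene 1693 bases from *PHO81*, had 23.7 FPKM in treated tetO-*GLN4* and 234 FPKM in the untreated strain, a log2 ratio of -3.30 (SD 0.24), beside -0.11 for *PHO81*. *IMD2*, an inosine monophosphate dehydrogenase gene 893 bases from *PHO12*, had 10.7 and 189 FPKM in treated and untreated tetO-*GLN4*, a log2 ratio of -4.14 (SD 0.24), beside -0.62 for *PHO12*. *ARO9*, which lies 608 bases from *SPL2* and overlaps YHR137C-A, had 207 and 1.69 FPKM, a log2 ratio of 6.93 (SD 0.29), beside 0.68 for *SPL2*. *QCR6*, a respiratory chain gene next to *PHO4*, had 377 and 711 FPKM and a log2 ratio of -0.92 (SD 0.21), beside 0.19 for *PHO4*. *PHO5* was the member with an interval call whose neighbours were both called in the same direction, *PHO3* and *PBY1*, the second with 21.4 FPKM in treated and 33.0 FPKM in untreated tetO-*GLN4*, a log2 ratio of -0.62 (SD 0.21).

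Upstream of *PHO89*, at a distance of 1600 bases, the small open reading frame YBR296C-A had 21.5 FPKM in treated tetO-*GLN4* and is listed at 0 in the untreated strain. In the wild type it had 5.01 FPKM with doxycycline and 2.08 FPKM without, with intervals apart (log2 ratio 1.27, SD 0.38), though it did not pass the z test. It was singled out after its values were seen. Among the 30 related genes, 15 hold CACGTG and 22 hold CACGTG or CACGTT within 600 bases of the start codon. Of 5985 genes, 7.23% and 24.4% do. The list of related genes includes some chosen as Pho4 targets, such as *PHM6*, so its shares describe the list and do not test for enrichment. Of the 8 called in tetO-*GLN4*, *GDE1*, *GIT1* and *PHM6* hold CACGTG, while *PHO3* and *PHO88* hold neither motif.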
